A study of Mus musculus with 24 samples.

Results

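The 81 genes described here encode proteins of the cytosolic ribosome. They are the protein-coding rows of the deposited count table whose symbols read Rpl or Rps followed by a number, with or without one of the letters a, x or l, plus Rplp0, Rplp1, Rplp2 and Rpsa, out of 47967 genes in all. Of these, 50 belong to the large (60S) subunit by symbol and 31 to the small (40S) subunit, and they lie on 19 chromosomes. Counts were high enough to test 80 of them. Rpl10l, a copy of Rpl10 known for its use in the testis, had 0 counts in all 24 libraries.

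The study measured total RNA from C57BL/6 mouse embryonic fibroblasts (MEFs), taken at embryonic day 13.5 to 14.5, while retroviral factor cocktails pushed them towards a cardiac muscle fate. GMT is Gata4, Mef2c and Tbx5, GHMT adds Hand2, and AGHMT adds the kinase Akt1 to GHMT. RNA was taken 2 or 7 days after transduction, with 3 libraries in each of 8 groups: mock, GMT, GHMT and AGHMT at day 2 and again at day 7. All cells were cultured wild-type fibroblasts of 1 strain, transduced as a mixed population, so each library averages cells that took up the viruses and cells that did not. The labels do not say whether mock cells received an empty virus or the induction medium that transduced cells received, so virus, medium and factors cannot be told apart in the comparisons with mock. Nor do they say that the 3 libraries of a group came from separate cultures, and p-values then measure only the spread between these libraries.

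Ribosomal proteins coat and fold the ribosomal RNA, and most are needed in equal numbers, 1 per ribosome. Their mRNAs are short and abundant, and most begin with a C and a run of pyrimidines, the 5′ terminal oligopyrimidine (TOP) motif, through which mTOR signalling and the RNA-binding protein LARP1 control their translation and stability. Akt1, the added kinase, acts upstream of mTOR. In the heart some core proteins have tissue-restricted copies, of which Rpl3l, the striated-muscle copy of Rpl3, is the best known.

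The start-site sequences of 5 members are printed to show the short pyrimidine runs near the start in members that fell (Rpsa, Rps12, Rps27) and what stands there in the 2 members that rose (Rps27l, Rpl3l). Each is 100 bases on the gene's own strand, 5′ to 3′. It runs from 70 bases before to 30 bases after the most upstream start that RefSeq gives on GRCm38.p6. Capitals mark CTTTC or its longer form CTTTTC, or else CCGGAAG, the core that ETS-family factors recognise. The marked run lies downstream of that start in Rpsa and Rps12, so neither window shows a transcript that begins with the run. In Rps27, 1 run lies before the start and the other follows the start base directly. That base is a C, so a transcript from there would begin with a C and a run of pyrimidines. Other pyrimidine runs, such as ctcctctcc before the start in Rps27l, are not marked. Whether a run goes with the direction of change was not tested. The windows are Rpsa at chr9:120127696-120127795 on the plus strand, Rps12 at chr10:23787180-23787279 on the minus strand, Rps27 at chr3:90213619-90213718 on the minus strand, Rps27l at chr9:66946016-66946115 on the plus strand and Rpl3l at chr17:24727756-24727855 on the plus strand.
Rpsa: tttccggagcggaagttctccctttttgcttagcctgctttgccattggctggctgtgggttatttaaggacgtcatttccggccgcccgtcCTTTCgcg
Rps12: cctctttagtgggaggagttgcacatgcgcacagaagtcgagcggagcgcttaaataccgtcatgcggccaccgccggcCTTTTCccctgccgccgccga
Rps27: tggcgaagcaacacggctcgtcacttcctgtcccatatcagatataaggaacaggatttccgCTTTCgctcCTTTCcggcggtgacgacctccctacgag
Rps27l: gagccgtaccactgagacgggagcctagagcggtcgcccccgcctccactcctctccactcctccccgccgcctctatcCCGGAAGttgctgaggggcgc
Rpl3l: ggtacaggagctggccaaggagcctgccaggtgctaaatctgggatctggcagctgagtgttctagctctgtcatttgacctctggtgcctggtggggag

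The RefSeq promoter table had a window for 60 of the 81 members. A gene was counted when the window of any of its RefSeq starts held the letters. CTTTC or CTTTTC stood on the transcript strand within 50 bases of a start in 38 of these 60 (63.3%). The same letters were there in 15.1% of 11300 tested coding genes with a window and in 17.9% of all 27025 genes with a window. On the opposite strand of the same window it was in 9 of the 60 members, against 14.2% of the tested coding genes. CCGGAAG was in 25 of the 60 members (41.7%), on either strand from 250 bases before to 50 after a start. It was there in 17.7% of the tested coding genes and in 9.93% of all genes with a window. CACGTG, the E-box that Myc recognises, was in 6 of 60 (10.0%) in that longer window, close to the 11.1% of tested coding genes, and TATAAA was in 6 of 60, against 9.51%. These words were chosen after the windows had been read, and a match describes the letters only.

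Ribosomal protein mRNAs took up less of the sequenced RNA in each cocktail than in mock, and least with AGHMT. At day 2 the 81 genes held 3.45%, 3.41% and 3.45% of all gene counts in the mock libraries and 3.11%, 3.12% and 3.02% in the GMT libraries. The GHMT libraries had 2.32%, 2.34% and 2.58%, and the AGHMT libraries 1.84%, 1.86% and 2.52%. At day 7 the mock libraries had 2.93%, 2.94% and 2.81%, and the GMT libraries 2.43%, 2.37% and 2.38%. The GHMT libraries then had 1.96%, 2.30% and 1.95%, and the AGHMT libraries 1.66%, 1.66% and 1.64%. Every transduced library was below every mock library of its day, and at day 7 the 4 groups did not overlap at all. At day 2 the third AGHMT library lay inside the GHMT range. As a percentage of the mock mean, the share was 89.9, 70.3 and 60.4 with GMT, GHMT and AGHMT at day 2 and 82.8, 71.5 and 57.1 at day 7. In bulk RNA, fewer cells with high levels and less of these mRNAs per cell cannot be told apart, and a share says nothing of the absolute amount of RNA.

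**Figure D1:**
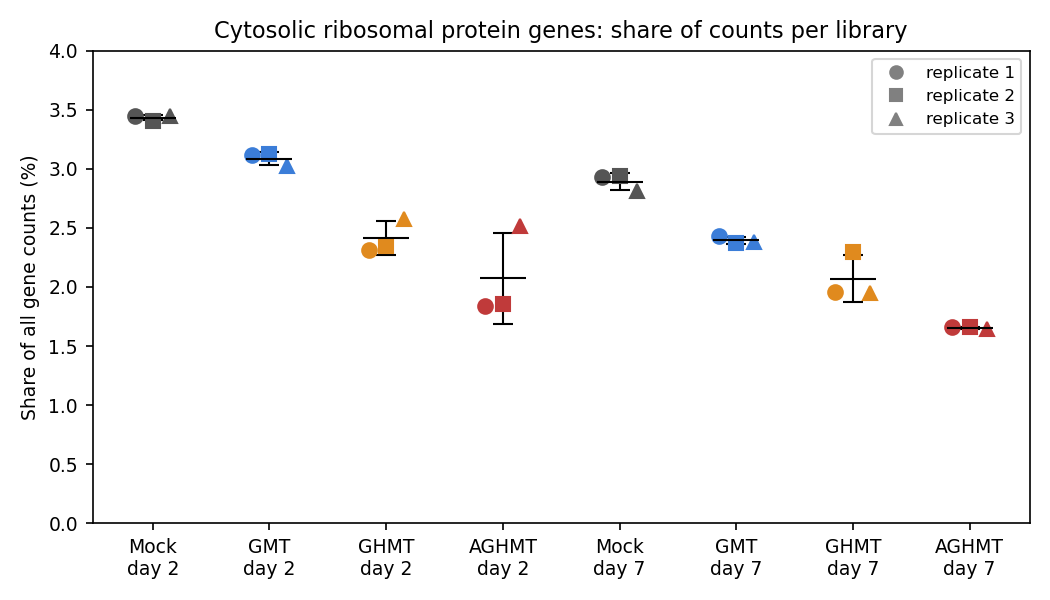
Share of all gene counts held by the 81 ribosomal protein genes (y axis, percent) in the 24 libraries by group (x axis); symbols are replicates, long bars group means and whiskers 1 SD (n = 3). The share steps down from mock to GMT, GHMT and AGHMT on both days, from 3.43% to 2.07% at day 2 and from 2.89% to 1.65% at day 7 as means, and the third GHMT and AGHMT libraries of day 2 and the second GHMT library of day 7 stand above their fellows.

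These 3 libraries stood apart from their fellows, and not in ribosomal protein genes alone. Against the other 2 libraries of its group, the median member was higher by 0.44 on the log2 scale in the third AGHMT library of day 2, by 0.22 in the second GHMT library of day 7 and by 0.13 in the third GHMT library of day 2. In the same libraries, coding genes of at most 1000 bases outside the members were higher by 0.28, 0.14 and 0.09 as medians. Coding genes over 5000 bases moved by -0.27, -0.14 and -0.10. Transcript length thus moved with the members' level inside these groups, and members are short, with a median of 774 bases against 2723 for tested coding genes. Against mock the median log2 fold change of the short non-members was 0.11, 0.08 and 0.23 with GMT, GHMT and AGHMT at day 2 and 0.28, 0.20 and 0.24 at day 7. From GHMT to AGHMT it was 0.13 and 0.06 at days 2 and 7, and from GMT to GHMT it was -0.01 and -0.03, of the same sign as the members. The part of transcript length in the members' differences was not tested on its own. Without the 3 libraries the mean share was 2.33% in GHMT and 1.85% in AGHMT at day 2, and 1.95% in GHMT at day 7.

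The libraries held 29345957 to 37495178 counts each. The 4 transcription factors were 49.6 to 893 times as high in the cocktails that contain them as in mock, and Akt1 was 1.17 and 1.21 times as high in AGHMT, with each such library above every mock library of its day. The cells' marker genes also differed between groups, but not always in the order of the ribosomal protein share. Summed over 12 fibroblast markers, the level was 46648 to 50732 counts per 1000000 of the library's tested counts after TMM scaling (CPM) in mock at day 2 and 75041 to 81316 CPM at day 7, against 13400 to 32795 CPM in the transduced libraries. At day 7 the fibroblast sum averaged 13848, 18700 and 19625 CPM with GMT, GHMT and AGHMT, rising where the share fell. In mock it likewise rose between the days while the share fell. Summed over 10 cardiac muscle markers, the level was 14.3 to 25.7 CPM in mock and 4268 to 21852 CPM in the transduced libraries. The 14 macrophage markers summed to 424 to 617 CPM in the mock libraries of day 7 and to at most 77.7 CPM in any other library. The part of these shifts in the ribosomal protein differences was not tested.

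Rates per length ranged widely among members. Rplp1, of the acidic stalk, was highest with 1682 CPM per kilobase of transcript over all libraries, followed by Rps12 with 990, Rps24 with 859 and Rps27 with 755. Rpl23a was lowest among members above 5 CPM, with 12.3 CPM per kilobase, followed by Rpl39l with 17.2 and Rpl13a with 59.6. The next value, 68.0 for Rps15a, rests on an annotated median transcript length of 5130 bases, and that of Rps20 is 3706 bases, so their rates per length are uncertain. Many members have near-identical processed copies elsewhere in the genome, and how reads that match several places were counted is not given in the sources used here. Levels of low members such as Rpl23a and Rpl24 are therefore uncertain. Rpl6l, a copy of Rpl6, had 2 to 24 counts in a library. The 258 rows whose symbols name them as pseudogenes of members (ending in -ps, with or without a number) held counts equal to 0.18% to 0.27% of the members' counts. Copies under other symbols were not counted, so the percentage does not give all reads assigned to copies. The large subunit members had 1.37 ± 0.006 times the counts of the small subunit members in mock at day 2 and 1.34 ± 0.002 times at day 7. With the cocktails the group means of this ratio ran from 1.39 to 1.44 over both days (SD up to 0.024, n = 3).

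Against mock at day 2, members fell under each cocktail, and none of the 80 rose. With GMT, 39 passed the test as lower (edgeR's quasi-likelihood test, adjusted p under 0.05), where 33.1% of all 17576 tested genes were called lower and 33.9% higher, and the median log2 fold change was -0.18. With GHMT, 69 were lower against a background of 33.3% lower and 34.9% higher, with a median of -0.41. With AGHMT, 76 were lower against 37.4% lower and 38% higher, with a median of -0.71. The median over all tested genes was 0.00, 0.01 and 0.00. When each gene's length and GC content were corrected for, the GMT count was 72 and the 3 medians were -0.34, -0.55 and -0.88. No background share was taken from that fit.

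At day 7 the same 3 comparisons gave 58 members lower with GMT (background 36%), 73 with GHMT (35.6%) and 77 with AGHMT (38.1%). The medians were -0.31, -0.46 and -0.81. In each of the 3, 2 members were higher, Rps27l and Rpl3l, against a background of 37.1%, 36.3% and 38.6% called higher. The small subunit members had a median of -0.88 with AGHMT and the large subunit members -0.76, with 30 of 31 and 47 of 49 lower. All 3 AGHMT libraries were below all 3 mock libraries for 76 of 80 members, where 39.6% of all tested genes showed this. The 1 member not called with AGHMT at day 7 was Rpl24, at 0.230 to 0.507 CPM at that day. The log2 fold change was below -1, a drop of more than 2-fold, for 15 members at day 7 and 8 at day 2.

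**Figure D2:**
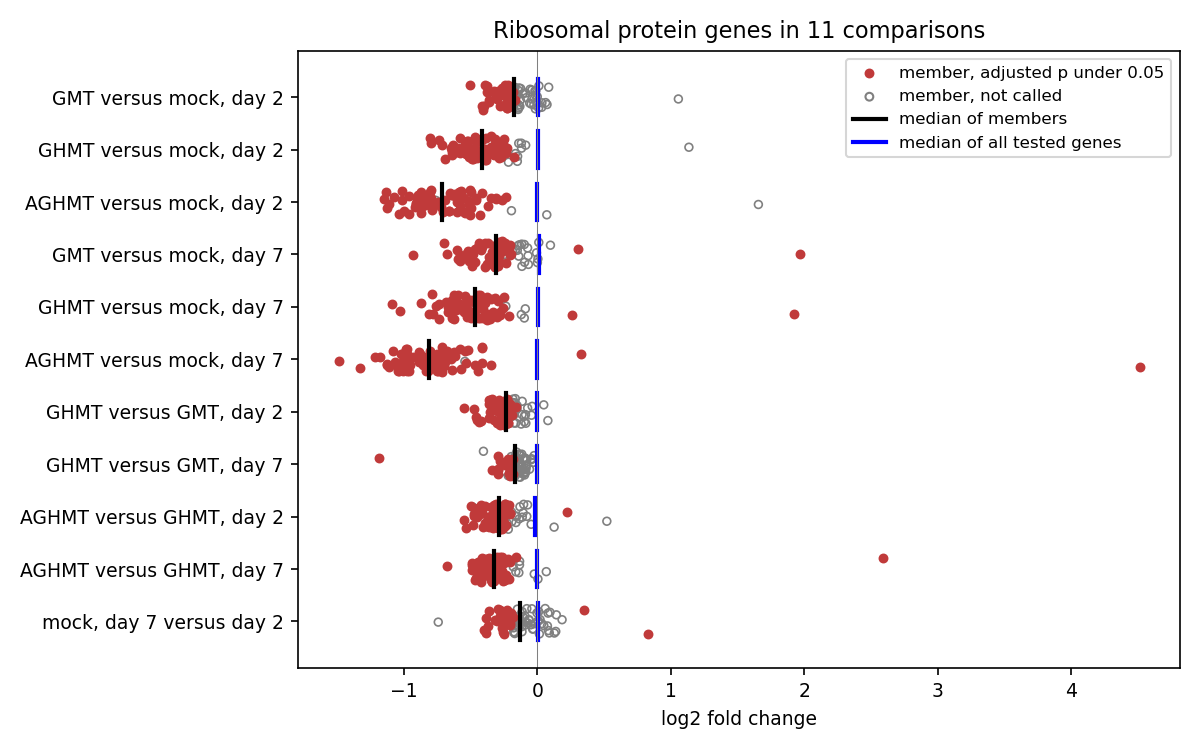
Log2 fold change (x axis) of the 80 tested ribosomal protein genes in 11 comparisons (rows); filled points passed edgeR's test at an adjusted p under 0.05, open points did not, black bars are the members' medians and blue bars the medians of all tested genes. The members' median lies left of that of all genes in each row, from -0.13 in mock over time to -0.81 for AGHMT against mock at day 7, while Rpl3l lies far to the right in 4 of the rows at or above 1.93.

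Rpsa, the laminin-receptor-like protein of the small subunit and the first of the printed windows, was among the lowest at day 2 in all 3 cocktails. Its level was 970, 975 and 965 CPM in mock and 673, 690 and 682 CPM with GMT. It was 540, 543 and 586 CPM with GHMT and 395, 401 and 533 CPM with AGHMT, so no library overlapped that of the next group. The log2 fold change against mock was -0.51 ± 0.07 (SE) with GMT, -0.80 ± 0.07 with GHMT and -1.13 ± 0.07 with AGHMT. At day 7 it was -0.49 ± 0.07, -0.79 ± 0.07 and -1.11 ± 0.07. In mock itself Rpsa fell by 0.39 ± 0.07 from day 2 to day 7 (edgeR adjusted p = 6.8e-05).

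Rplp0, Rplp1 and Rplp2 form the stalk that recruits elongation factors, and they are among the most abundant members. Rplp1 was at 1201 ± 22.1 CPM in mock at day 2, 1062 ± 64.8 with GMT, 830 ± 52.9 with GHMT and 670 ± 146 with AGHMT (SD, n = 3). At day 7 its levels were 1008 ± 65.4, 758 ± 18.9, 668 ± 61.6 and 516 ± 9.12 CPM. All 3 stalk genes fell with AGHMT on both days, by 0.67 ± 0.07 (Rplp0), 0.84 ± 0.09 (Rplp1) and 0.96 ± 0.11 (Rplp2) on the log2 scale at day 2 and by 0.96 ± 0.08, 0.97 ± 0.09 and 0.81 ± 0.11 at day 7. With GMT at day 2 none of the 3 passed the test, with log2 fold changes of -0.05, -0.18 and -0.14.

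Among small subunit genes, Rps20 and Rps12 fell most with AGHMT at day 7. Rps20, which sits at the head of the subunit, was at 576, 577 and 547 CPM in mock at day 7 and at 303, 295 and 292 CPM with GMT. It was at 261, 320 and 253 CPM with GHMT and at 202, 204 and 198 CPM with AGHMT. GMT and GHMT overlapped, and AGHMT was below both. Its log2 fold change with AGHMT was -1.49 ± 0.10 (edgeR adjusted p = 3.7e-13). Rps12 was at 654, 676 and 649 CPM in mock at day 7 and at 260, 268 and 259 CPM with AGHMT, a log2 fold change of -1.33 ± 0.09. Rps4x, an X-linked member, fell by 1.18 ± 0.08, from 593 ± 25.8 to 261 ± 2.39 CPM. Rps6, the classic substrate of S6 kinase downstream of mTOR, fell by 0.72 ± 0.08, from 268 ± 12.6 to 162 ± 3.45 CPM. Rps19, the gene most often mutated in Diamond-Blackfan anaemia, fell by 0.74 ± 0.09.

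In the large subunit, Rpl3, a core protein near the peptidyl transferase centre, had the lowest log2 fold change of all members above 5 CPM with AGHMT at day 2, -1.15 ± 0.06. It was at 724, 698 and 692 CPM in mock and at 292, 292 and 368 CPM with AGHMT. Rpl5 and Rpl11, which form a particle with 5S RNA that can bind Mdm2, fell with AGHMT at day 7 by 0.75 ± 0.07 and 0.54 ± 0.08. Rpl23a fell by 1.21 ± 0.13, from 12.5 ± 1.10 to 5.38 ± 0.416 CPM, on 1232 and 517 counts summed over the libraries. The members that moved least were Rpl27, Rpl36 and Rpl38, with log2 fold changes of -0.35 ± 0.09, -0.41 ± 0.10 and -0.42 ± 0.11, each still lower by the test. Over the 8 groups, the SD of the group means on the log2 scale was smallest for Rps27l (0.14), Rpl38 (0.15), Rpl41 (0.16) and Rpl27 (0.17). It was largest, among members above 5 CPM, for Rpl23a (0.62), Rps20 (0.54), Rps12 (0.52) and Rps4x (0.50).

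**Figure D3:**
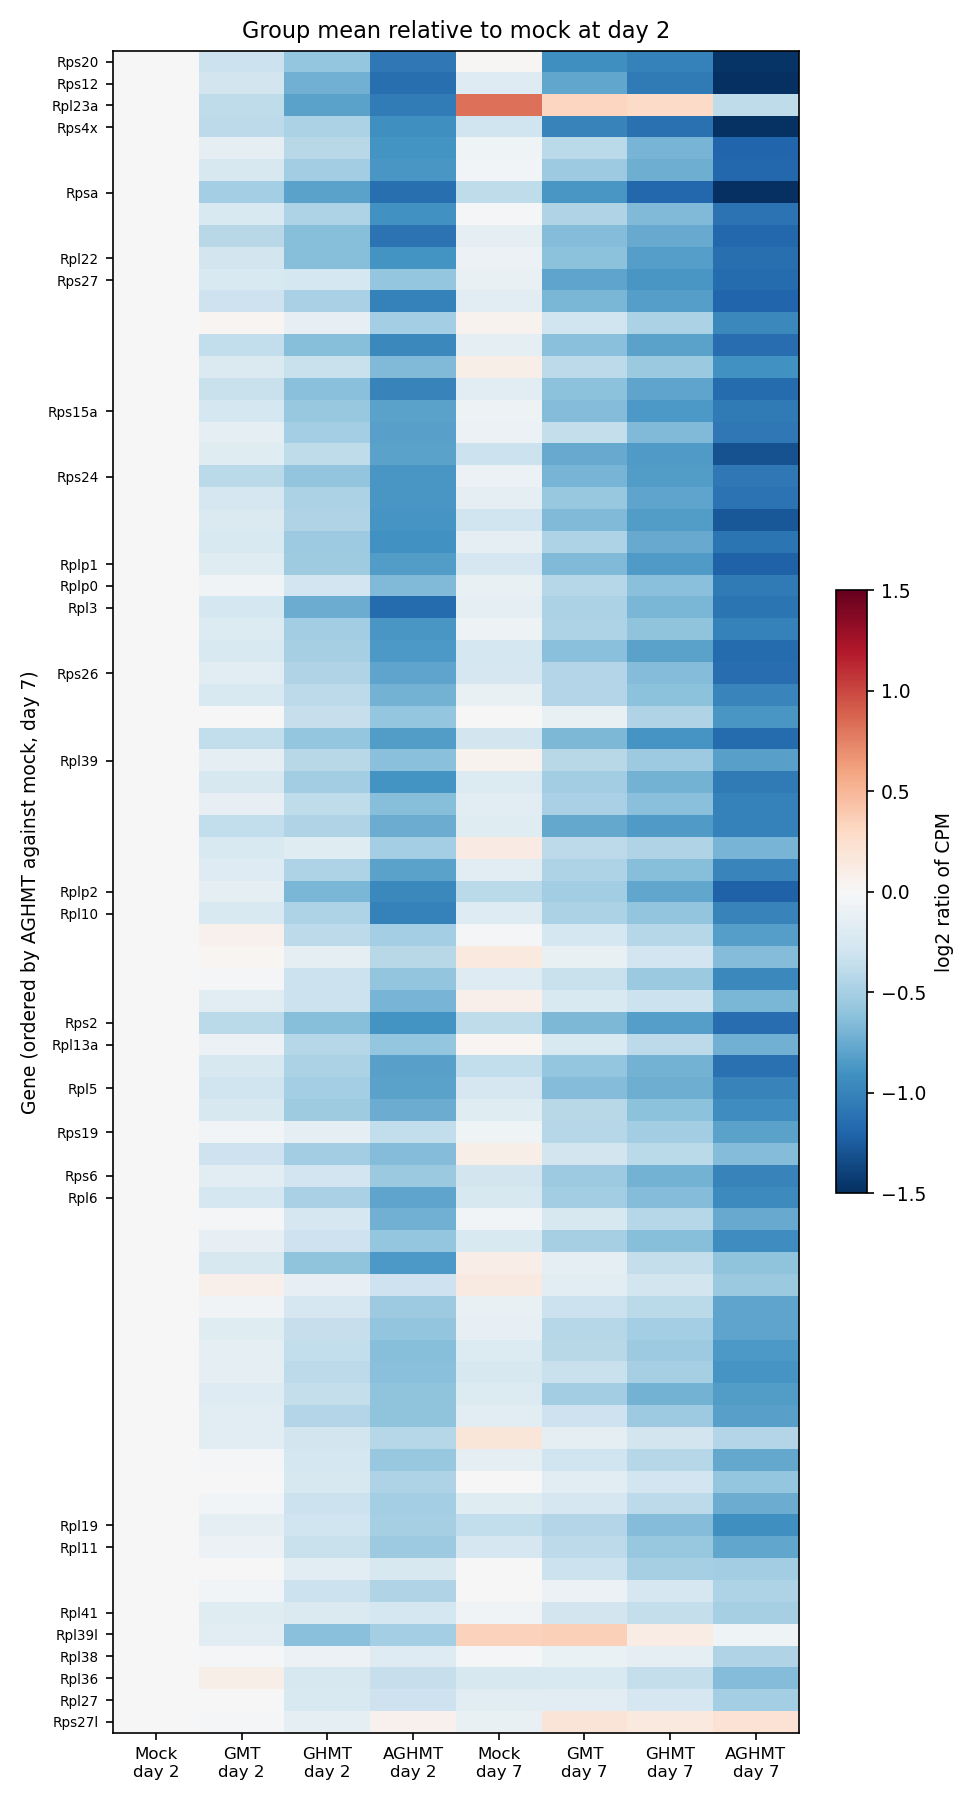
Group means of the members with a mean above 5 CPM (rows, ordered by AGHMT against mock at day 7) as log2 ratio to mock at day 2 (colour, limited to 1.5 either way) in the 8 groups (columns), with row labels for the members named in the text. Blue deepens from GMT to AGHMT on both days for most rows, Rps27l at the bottom stays near white or turns pale red, and Rpl23a and Rpl39l are red in mock at day 7.

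Rps27l ran against the rest of the small subunit. It encodes a near-copy of Rps27 and is known as a target of p53. Its level was 143, 142 and 146 CPM in mock at day 7 and 180, 183 and 171 CPM with GMT. It was 163, 197 and 156 CPM with GHMT and 181, 185 and 175 CPM with AGHMT, so every transduced library was above every mock library. The log2 fold changes were 0.31 ± 0.09, 0.26 ± 0.09 and 0.33 ± 0.09 (edgeR adjusted p = 0.0038, 0.0125 and 0.0021). The GHMT call rested on 1 library: without the second GHMT library of day 7 its log2 fold change was 0.15 and no longer passed. At day 2 none of the 3 differences from mock passed the test, with log2 fold changes of -0.03, -0.15 and 0.07. Without the 3 libraries that stood apart, it was lower than mock at day 2 with GHMT (-0.22) and with AGHMT (-0.10), both past the test. Rps27 fell over the same steps, from 334, 331 and 322 CPM in mock at day 7 to 160, 166 and 154 CPM with AGHMT. The ratio of Rps27l to Rps27 CPM was 0.437 ± 0.014 in mock at day 7, 0.865 ± 0.027 with GMT, 0.886 ± 0.027 with GHMT and 1.13 ± 0.010 with AGHMT (SD, n = 3). At day 2 it was 0.437 ± 0.012, 0.502 ± 0.011, 0.475 ± 0.012 and 0.686 ± 0.006. The ratio is taken within a library and varied little in the libraries that stood apart: the 3 AGHMT libraries of day 2 gave 0.686, 0.680 and 0.692. Per kilobase of transcript, the ratio with AGHMT at day 7 was 0.724.

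Rpl3l was nearly silent in mock and rose with AGHMT at day 7 to a low level. Its counts were 0, 1 and 3 in the mock libraries of day 7, 6, 5 and 7 with GMT, 4, 11 and 2 with GHMT, and 31, 32 and 34 with AGHMT. In CPM, AGHMT reached 0.975, 1.04 and 1.01, above all other libraries of the series. Scaled for depth, the AGHMT counts were 25.6 times those of mock (95% exact interval 9.68 to 95.8, counting error only) and 6.16 times those of GHMT (3.66 to 11.01). Both differences passed the test (edgeR adjusted p = 3.7e-08 and 5.6e-06). The rise with GMT (adjusted p = 0.0278 by edgeR) and with GHMT (adjusted p = 0.0334 by edgeR) at day 7 rested on few counts. It no longer passed without the first or the second mock library, and the same held for GMT without its first or the third library and for GHMT without its second. Neither passed when length and GC content were corrected for. Rpl3, the parent gene, stayed at 332, 328 and 329 CPM in those AGHMT libraries, so Rpl3l remained far below it. Rpl39l, a copy known from the testis, was at 14.8, 15.5 and 15.2 CPM in mock at day 7 and at 12.05, 11.39 and 10.71 CPM with AGHMT, a log2 fold change of -0.42 ± 0.12. Its parent Rpl39 fell by 0.86 ± 0.10 there.

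**Figure D4:**
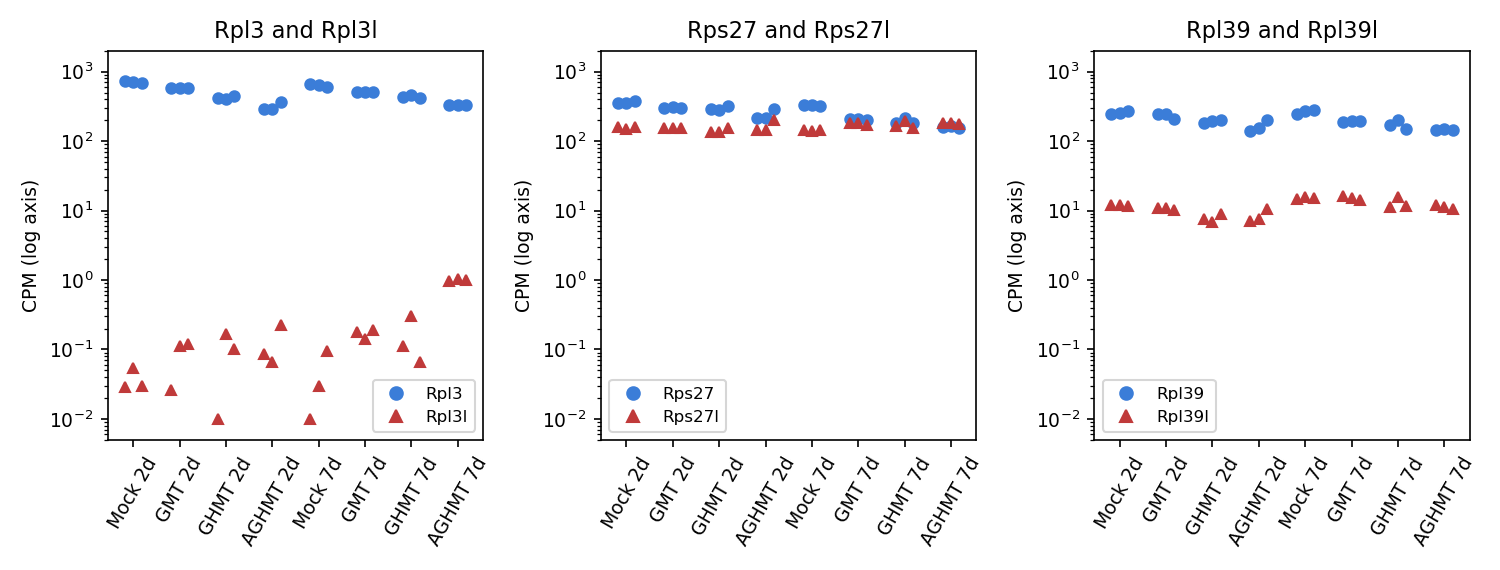
Levels of 3 parent genes (blue circles) and their copies (red triangles) in CPM on a log axis, each point 1 library of the group on the x axis; the 2 libraries without an Rpl3l count are drawn on the lowest row of points. Rps27l meets Rps27 by day 7 with AGHMT, at 180 against 160 CPM as means, and Rpl3l reaches 1.01 CPM there while Rpl3 is at 329 CPM.

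Members were lower with GHMT, which adds Hand2, than with GMT at day 2. The shared factors differed too: at day 2 Gata4 was at 1118 to 1168 CPM with GMT and 1427 to 1508 CPM with GHMT. Mef2c and Tbx5 were likewise higher with GHMT, on both days, as was Gata4 at day 7. Hand2 and these levels cannot be told apart. Of 80 members 54 were lower, against a background of 21.7%, and none was higher, against 23.1%, with a median log2 fold change of -0.24. Rplp2 and Rpl3 were lowest, with -0.55 ± 0.11 and -0.47 ± 0.06. At day 7, 20 were lower, against 18.8%, a share near the background, and none was higher, against 18.7%, with a median of -0.17. The counts depended on the libraries: without the first or the second GHMT library of day 2 the day-2 count was 32 or 34, and without the second GHMT library of day 7 the day-7 count was 48. Without the first or the third GHMT library the day-7 count was 6 or 7, without the first or second GMT library 11 or 13, and without the 3 libraries that stood apart 76. No share of all tested genes was taken from these fits.

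Members were lower with AGHMT, which adds Akt1, than with GHMT on both days. The shared factors differed too: at day 7 Gata4 was at 1091 to 1241 CPM with GHMT and 627 to 636 CPM with AGHMT. Tbx5 was at 2677 to 2795 and 1700 to 1747 CPM. Mef2c was also lower with AGHMT, and Gata4, Mef2c and Tbx5 were lower at day 2 as well. Hand2 was lower at day 2 and higher at day 7. Akt1 and these levels cannot be told apart. At day 2, 59 were lower (background 27%) and Rps27l was higher (background 25.7%), with a median of -0.28. At day 7, 71 were lower (background 23.6%) and Rpl3l was higher (background 25%), with a median of -0.33. At day 7 Rps26, a small subunit protein at the mRNA exit channel, fell by 0.49 ± 0.10 on the log2 scale, and Rpl23a, with few counts, by 0.68 ± 0.13. The day-2 count was 39 without the first or without the second AGHMT library, and 75 without the third AGHMT library. It was 24 when the 6 compared libraries alone were used. Those fits gave no share of all tested genes, so their counts have no background of their own. Every AGHMT library of day 2 was below every GHMT library for 27 of 80 members, against 4765 of 17576 tested genes. Over the alternatives the members' median at day 2 ran from -0.43 to -0.20. The call on Rps27l at day 2 (log2 fold change 0.22) was lost without the third AGHMT library, at 0.06, and without the first or the second GHMT library, at 0.18 each.

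Over time in mock, 24 of 80 members were lower at day 7 than at day 2, a share near the background of 25.8% of all tested genes. The members' median was -0.13. Rplp2, Rpsa, Rps2 and Rpl19 were lowest, at -0.40 ± 0.11, -0.39 ± 0.07, -0.38 ± 0.08 and -0.37 ± 0.07. Rpl23a (0.83 ± 0.12) and Rpl39l (0.35 ± 0.11) were the 2 that rose, against 29.7% of all tested genes called higher. The lower count was 50 without the 3 libraries that stood apart, none of which is a mock library, and 50 when the 6 mock libraries alone were used. The share of all tested genes called lower in those 2 fits was not taken, so these counts have no background of their own.

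Whether a cocktail's difference from mock changed between days was tested with an interaction term. Few members passed: 12 lower and 1 higher for GMT, 9 lower and 1 higher for GHMT, and 9 lower and 0 higher for AGHMT, where 25.3%, 26% and 26.1% of all tested genes were lower and 24.3%, 23.3% and 24.8% were higher. For the AGHMT count of 0, no member was higher by edgeR and 1 was higher by DESeq2. Rps20 and Rps27 had a further drop at day 7 in all 3 cocktails: Rps20 by 0.61 ± 0.13, 0.45 ± 0.13 and 0.42 ± 0.13 on the log2 scale for GMT, GHMT and AGHMT. These counts turned on single libraries and on the fit. No share of all tested genes was taken from the other fits, so the counts from them have no background of their own. For AGHMT the lower count was 26 or 24 without the first or second AGHMT library of day 2, and 12 members were higher without the third. Without the 3 libraries that stood apart, 28 members were higher for AGHMT and the median changed sign, from -0.09 to 0.07. With length and GC content corrected for, 57, 42 and 56 members were lower in the 3 interactions, but Rps20 passed for GMT alone. For GHMT it was 15 without the second GHMT library of day 7. For GMT it was 6 or 7 without any 1 of 6 libraries: the first or second mock library of day 7, the first of day 2, the second or the third GMT library of day 7 and the second of day 2.

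The genes that build ribosomes did not follow the ribosomal proteins over time. The list holds 30 assembly genes, such as nucleolin (Ncl), the nucleolar methyltransferase Nop2, and Rrp12, which acts in subunit export. At day 2, 19, 27 and 29 of the 30 were lower than in mock with GMT, GHMT and AGHMT, with medians of -0.21, -0.56 and -0.76, where 33.1%, 33.3% and 37.4% of all tested genes were lower. At day 7 the counts were 1, 6 and 16 lower and 18, 9 and 5 higher, with medians of 0.13, 0.01 and -0.17. Of all tested genes, 36%, 35.6% and 38.1% were then lower and 37.1%, 36.3% and 38.6% higher, so the GHMT shares lay below the background. In mock, 27 of 30 fell between the days, against 25.8% of all tested genes, with a median of -0.38. The interaction was higher for 27, 28 and 29 of the 30, with medians of 0.39, 0.56 and 0.51, where 24.3%, 23.3% and 24.8% of all tested genes were called higher. Ncl had an interaction of 0.48, 0.72 and 0.82 in the 3 cocktails, and Nop2 of 0.56, 0.85 and 0.73. Sbds, which helps to release a factor from the large subunit before joining, was higher than mock at day 7 in all 3, by 0.90, 0.81 and 0.54.

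Other TOP mRNAs did fall along with the ribosomal proteins with GHMT and AGHMT. Of 20 such genes, mostly translation factors, 18 were lower with AGHMT at day 2 and 16 at day 7. Their medians were -0.70 and -0.69, where 37.4% and 38.1% of all tested genes were lower. With GHMT 18 were lower and 0 higher at day 2, and 14 lower and 1 higher at day 7. The medians were -0.43 and -0.30, where 33.3% and 35.6% of all tested genes were lower and 34.9% and 36.3% higher. With AGHMT at day 7 Eif4b, a helper of the cap-binding helicase, was about as far down as Rack1 (-0.99), Tpt1 had a log2 fold change of -1.41 and the elongation factor Eef2 of -0.73. With GMT at day 7, 9 were lower and 4 higher, the first a share near the background of 36%, with a median of -0.05, or 15 and 1 with length and GC content corrected for. Of the 8 ribosomal protein relatives that the symbol rule left out, 6 were lower with AGHMT at day 7 and none was higher, against 38.1% and 38.6%. The ribosome-bound scaffold Rack1 had a log2 fold change of -0.99 ± 0.07 and Rpl22l1, the copy of Rpl22, of -1.09 ± 0.08.

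Genes of the mitochondrial ribosome did not fall with the cytosolic ones at day 7. Of 76 tested genes for its proteins, 49 were higher and 4 lower than mock with AGHMT at day 7, with a median of 0.31. The counts were 46 and 5 with GMT and 37 and 7 with GHMT. Of all tested genes, 38.6%, 37.1% and 36.3% were called higher and 38.1%, 36% and 35.6% lower with AGHMT, GMT and GHMT. With length and GC content corrected for together, the counts were 30 higher and 25 lower with AGHMT, 27 and 17 with GMT, and 19 and 30 with GHMT, and the higher share with AGHMT was then near the uncorrected background. The medians were then 0.06, 0.08 and -0.08. At day 2 they were 16 higher and 25 lower with GMT, 14 and 33 with GHMT, and 37 and 16 with AGHMT, where 33.9%, 34.9% and 38% of all tested genes were higher and 33.1%, 33.3% and 37.4% lower. From GHMT to AGHMT 51 rose and 2 fell at day 2, and 31 rose and 3 fell at day 7, where 25.7% and 25% of all tested genes were higher and 27% and 23.6% lower. With the correction the counts were 50 and 3 at day 2 and 26 and 5 at day 7. Their summed share of counts was 0.176% ± 0.001 in mock at day 7 and 0.227% ± 0.003 with AGHMT (SD, n = 3). Mrps36, Mrpl44 and Mrpl51 were higher with AGHMT at day 7 by 1.22, 0.94 and 0.93 on the log2 scale.

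**Figure D5:**
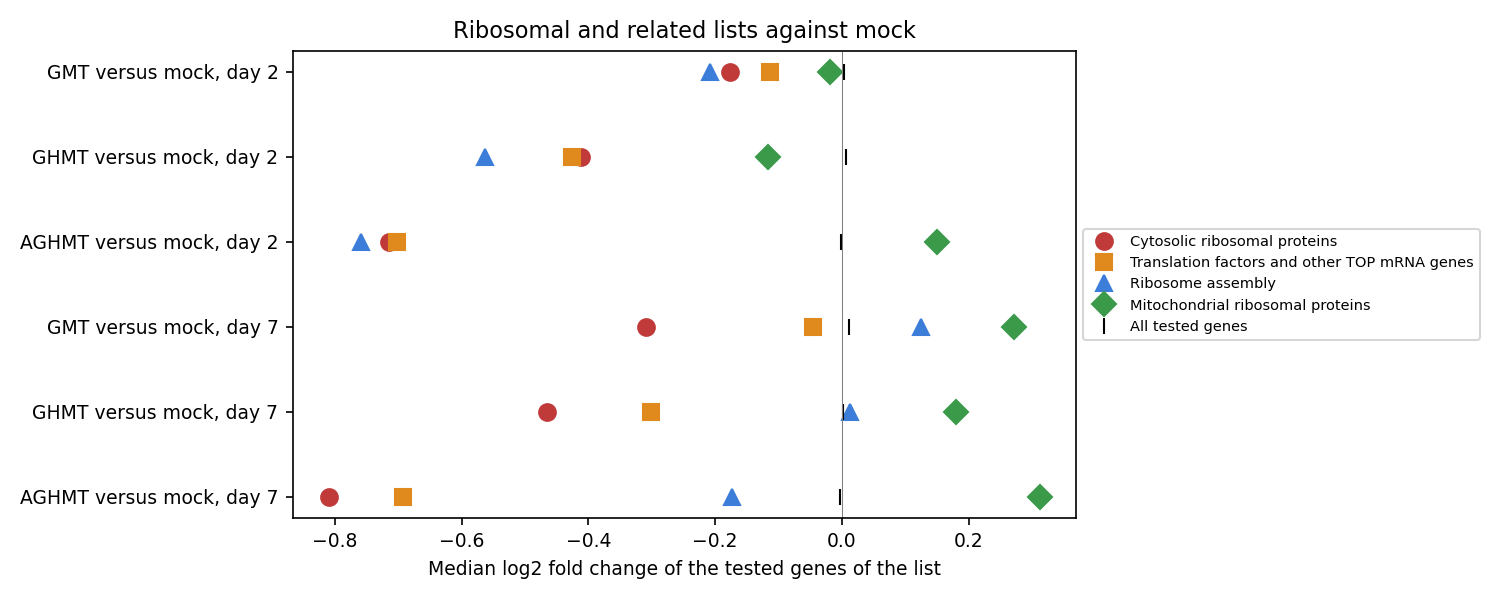
Median log2 fold change against mock (x axis) of cytosolic ribosomal proteins, other TOP mRNA genes, ribosome assembly genes and mitochondrial ribosomal proteins (symbols), with all tested genes as ticks, for each cocktail and day (rows). Cytosolic ribosomal proteins are left of 0 in all 6 rows (-0.81 in the lowest), assembly genes shift from -0.76 at day 2 to -0.17 at day 7 with AGHMT, and mitochondrial ribosomal proteins reach 0.31 with AGHMT at day 7, with no correction for length and GC content.

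Of 19 genes of the mTOR pathway, 8 were higher and 9 lower with AGHMT at day 7, shares near the 38.6% and 38.1% of all tested genes. Larp1, the TOP-binding repressor, was lower there by 0.36 and at day 2 by 0.80, and Akt2 was higher by 0.55 and 0.75. With GHMT, Akt2 was likewise higher than mock, by 0.58 at day 7 and 0.63 at day 2. Ddit4, an inhibitor of mTOR, was lower than mock with GMT and GHMT at day 7, by 1.33 and 1.18. From GHMT to AGHMT, Ddit4 was higher by 1.07 at day 2 and by 0.80 at day 7. Of 15 genes of RNA polymerase I and its regulators, 8 were lower and 3 higher with AGHMT at day 7, against the same 38.1% and 38.6%. Ubtf, which opens ribosomal DNA, was lower by 0.82, and Myc, an activator of ribosome genes, by 0.94. Rrn3 and Polr1e, of the same list, were higher there by 0.76 and 1.25. Among 6 genes that watch over unassembled ribosomal proteins or link them to p53, Mdm2 was higher at day 7 by 0.80, 0.71 and 0.60 with GMT, GHMT and AGHMT, and Trp53 was lower by 0.65 with AGHMT.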

How the data were processed

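The authors deposited raw read counts per gene for 24 libraries, per the file headers whole numbers with an Ensembl ID, symbol and gene type. Tools in the submitters' processing notes are, among others, HISAT2 2.0.1 and featureCounts 1.4.6, with Trim Galore 0.4.1 and DESeq2 1.6.3, and the build is GRCm38/mm10. The sources used here do not give the annotation release, the strand setting or how multi-mapping reads were counted. Overlapping and antisense genes therefore cannot be told apart. A table of log CPM values was not used.

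CPM is a gene's counts per 1000000 of the library's counts in tested genes times its TMM factor. Shares of counts use all gene counts, unscaled. Tests used edgeR 4.0.16 (R 4.3.3): TMM scaling, filterByExpr, and the quasi-likelihood F test in 1 fit of all 8 groups with 17576 genes. Calls are Benjamini-Hochberg adjusted p-values under 0.05 over all these genes in each of 14 comparisons. The SE is the log2 fold change divided by the square root of F. The step was tested on simulated data drawn from the counts, with 16240 genes: 50% of genes changed 1.2-fold and 94% of those changed 1.5-fold were recovered. The simulation took AGHMT and mock of day 7 alone, with 1 dispersion (0.0031) for all genes and 50 changed genes per fold. The data differ in this, so the rates need not hold for them. Replicates of a group differed by more than sampling noise. Transcript length is the median of a gene's coding transcripts in GENCODE M21 (99.7% of tested genes matched). Promoter windows came from RefSeq.

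The members and lists were chosen with earlier results of these data known, and the list of mitochondrial ribosomal proteins was added after the files had been seen. Named genes are the copies with their parents, the stalk genes and Rpsa, the 4 highest and 4 lowest members per comparison among those with at least 5 CPM, up to 4 called against the majority, the 4 at each extreme of spread and of level per length, and up to 4 genes of each other list by adjusted p. Rps6, Rps19, Rpl5 and Rpl11 were named outside that rule for their known roles, after their values were seen, and the results of some members that the rule names are not reported here. Alternatives were DESeq2 1.42.0, its size factors, no filter, TMM without members, the compared libraries alone, a replicate block, length and GC offsets, other denominators of the share, the 3 libraries that stood apart left out, and each library left out in turn. The 14 macrophage, 6 endothelial and 5 erythroid markers are cells a fibroblast culture could hold; endothelial and erythroid markers summed to at most 13.5 and 1.04 CPM.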

Additional observations from a re-analysis of the deposited data

Results flagged for a closer look

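These members' differences from mock changed between day 2 and day 7 by the interaction term of edgeR's model (adjusted p under 0.05). All values are log2 differences of the fold change, day 7 minus day 2. Rps27l had 0.33 ± 0.13 with GMT and 0.41 ± 0.13 with GHMT, and it was the 1 member with a positive change in each. Rps20 had -0.61 ± 0.13 with GMT, -0.45 ± 0.13 with GHMT and -0.42 ± 0.13 with AGHMT. Rps27 had -0.45 ± 0.12, -0.49 ± 0.12 and -0.46 ± 0.12. Rpl31, a large subunit protein near the exit tunnel, had -0.40 ± 0.10 with GHMT. The adjusted p-values from edgeR ran from 0.00042 for Rps20 with GMT to 0.0324 for Rps27l with GMT. The Rps27l call with GMT was lost when any 1 of 7 libraries was left out (0.31 to 0.33). For Rps20 the GHMT and AGHMT calls were lost with length and GC content corrected for (-0.23 and -0.34), on its annotated length of 3706 bases.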

How the results depend on the processing

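Members' median log2 fold change against mock kept its sign in all 6 comparisons under every alternative. Its range was -0.34 to -0.15 (GMT, day 2), -0.55 to -0.39 (GHMT), -0.88 to -0.62 (AGHMT), -0.60 to -0.28 (GMT, day 7), -0.78 to -0.42 (GHMT) and -1.16 to -0.79 (AGHMT). The median of the AGHMT change between days turned positive without the 3 libraries that stood apart (0.0654), and over single libraries left out it ran from -0.207 (without the first AGHMT library of day 2) to 0.0305 (without the third). That of GHMT ran from -0.145 (without the second GHMT library of day 7) to 0.00356 (without the third GHMT library of day 2). Rps27l turned to 0.00521 for GMT at day 2 with no filter. For AGHMT at day 2 it turned to -0.10 without the 3 libraries, and over single libraries left out it ran from -0.0903 (without the third AGHMT library) to 0.160. The cause was not tested where none is named here.

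Counts of members moved as follows. Shares of all tested genes were taken from the main fit alone, so counts from other fits, of members or of lists, have no background of their own. With length and GC content corrected for, 72 were lower with GMT at day 2, 1 was higher with GMT and 1 with GHMT at day 7, 51 were lower in GHMT against GMT at day 7, 10 were higher over time in mock, and 57, 42 and 56 were lower in the GMT, GHMT and AGHMT interactions. In fits of the compared libraries alone, 2 were higher with GMT at day 2, 1 with GMT and 1 with GHMT at day 7, 44 were lower in GHMT against GMT at day 7, and 0 were higher and 24 lower in AGHMT against GHMT at day 2. In those fits 5 were higher and 50 lower over time in mock, the GMT interaction was lower for 36 and higher for 2, and that of GHMT higher for 5. With no filter, 47 were lower in GHMT against GMT at day 7, 6 higher over time in mock, and 33, 20 and 28 lower in the 3 interactions, with 3 higher for GHMT and 1 for AGHMT. Without the 3 libraries, 1 was higher with GHMT at day 7, 76 were lower in GHMT against GMT and 2 higher in AGHMT against GHMT at day 7, and 10 were higher and 50 lower over time in mock. The interactions were then lower for 43 (GMT) and 33 (GHMT) and higher for 2, 6 and 28. DESeq2 gave 2 higher for GHMT and 1 for AGHMT, and DESeq2's size factors in edgeR gave 2 for GHMT.

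Leaving out 1 library at a time gave these ranges. For AGHMT against GHMT at day 2, 0 to 1 were higher and 39 to 75 lower. For GHMT against GMT, 32 to 59 were lower at day 2 and 6 to 48 at day 7. Against mock, 0 to 1 were higher with AGHMT at day 2, and 1 to 2 with GMT and 0 to 2 with GHMT at day 7. The interactions were higher for 0 to 1, 1 to 3 and 0 to 12 and lower for 6 to 16, 6 to 15 and 6 to 26.

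The mean share without the 50 highest other genes in the denominator was 4.03%, 3.53% and 2.85% in mock, GMT and GHMT at day 2 and 3.54%, 2.71%, 2.40% and 1.90% in the 4 groups at day 7. Of coding counts it was 3.47% in mock at day 2 and 1.67% with AGHMT at day 7. The order of groups was the same.

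Replicate numbers did not pair the libraries: correlations of same-numbered deviations ran from -0.042 to 0.044, other than 0.094, 0.072 and 0.274 for AGHMT against GHMT at day 2. With the number as a replicate block, 0 members were higher there, and 77 were lower with AGHMT against mock at day 7, as without it.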
